A study of Oryza sativa with 4 samples.

Results

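Genes of fatty acid, wax and lipid transfer biology were measured on 4 rice arrays of a study of RFL, the rice counterpart of the floral regulator LEAFY. Members are the non-control probes whose description names a fatty acid, acyl-CoA, acyl carrier, ketoacyl or desaturase function, lipid transfer, a lipase, a phospholipid, a very-long-chain acid, a CER gene or oleosin, leaving out lipoxygenases and P450s. This gave 182 of 21495 probes, each for its own full-length rice cDNA, and 148 of them passed the filter on dim probes with values on all 4 arrays. Of the other 34, 32 failed that filter and 2 lost an outlier spot. Only 29 members are described as rice genes, and 148 by the nearest homologue of another species, so names below are those of the homologue. Several cDNAs can share a description (113 distinct descriptions), and they are counted apart.

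Each array set transgenic RNA against wild type RNA in 2 dyes. The groups were panicles of plants with a dsRNAi construct for RFL (2 arrays), panicles of plants expressing RFL antisense RNA (2 arrays), and wild type panicles on every array, all labelled as, or on arrays titled for, branching panicles. The wild type is cultivar TP309. The promoters of the constructs, the number of lines and the number of plants pooled are not given in the sources used here, and 0 probe names or descriptions name RFL, LFY or LEAFY itself, so the level of RFL was not examined. For each construct replicate 1 carried the transgenic RNA in Cy5 and replicate 2 in Cy3. The labels do not settle whether both antisense arrays hold separate RNA, so each SE and p-value covers only how arrays vary, which may be technical. Whether 1 wild type RNA pool served all arrays is not stated either. In RNA of whole panicles, fewer cells of a type and less RNA per cell cannot be told apart.

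In plants, fatty acids are made in plastids on an acyl carrier protein, freed as acyl-CoA, and then elongated in the endoplasmic reticulum into the very-long-chain acids from which cuticular wax is made. Lipases free fatty acids from storage and membrane lipids, and peroxisomes break them down by beta-oxidation. Lipid transfer proteins are small secreted proteins that bind lipids, and many are made in the epidermis and in anthers.

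Array values are given as log2(transgenic/wild type). Each value with an error is the mean of both constructs ± limma's SE over 4 arrays, with limma's Benjamini-Hochberg adjusted p over all 17997 probes tested, and a cDNA is said to have risen or fallen only at an adjusted p under 0.05. Well above background were between 16106 and 18191 probes in transgenic and between 14722 and 17270 in wild type channels. No member was saturated (0 of 182).

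In the mean of both constructs 86 of 148 members passed, which is 58.1%, against 41.7% of all probes tested. Members that rose numbered 46 (31.1%, against 20.5% of all probes), and 40 fell (27.0%, against 21.3%). At least 2-fold changes that passed were found in 24 members (16.2%, against 8.14%), and 58 passed with the same sign on all 4 arrays (39.2%, against 34.4%). On their own, both constructs were higher for 16 members (10.8%, against 7.71% of all probes) and both lower for 17 (11.5%, against 8.61%). Members as a whole did not shift to one side, with a median of 0.0065 beside -0.0016 for all probes. Taken apart, dsRNAi gave 54 called members (36.5%, against 25.8% of all probes), of which 21 were higher (14.2%, against 11.2%) and 33 lower (22.3%, against 14.6%). Antisense gave 73 (49.3%, against 37.2%), of which 46 were higher (31.1%, against 18.9%) and 27 lower (18.2%, against 18.3%). The count of 86 was 30 with construct as a random block, where disagreement between constructs enters the error (2594 of all 17997 probes). It was 21 with median centring in place of loess (1096 of all probes). With each pair of arrays averaged it was 0 (34 at an unadjusted p under 0.05), and over all probes the count was also 0. Named cDNAs whose calls the random block ended are given with its adjusted p. Of 39 calls in the mean named by rule, median centring kept 17, those of AK067907, AK101524, AK058242, AK058833, AK065216, AK061440, AK100592, AK069768, AK066934, AK070261, AK110292, AK070904, AK065261, AK100278, AK066556, AK058921 and AK058896. It ended the other 22, and its adjusted p is given for the 7 of these that the random block kept.

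**Figure D1:**
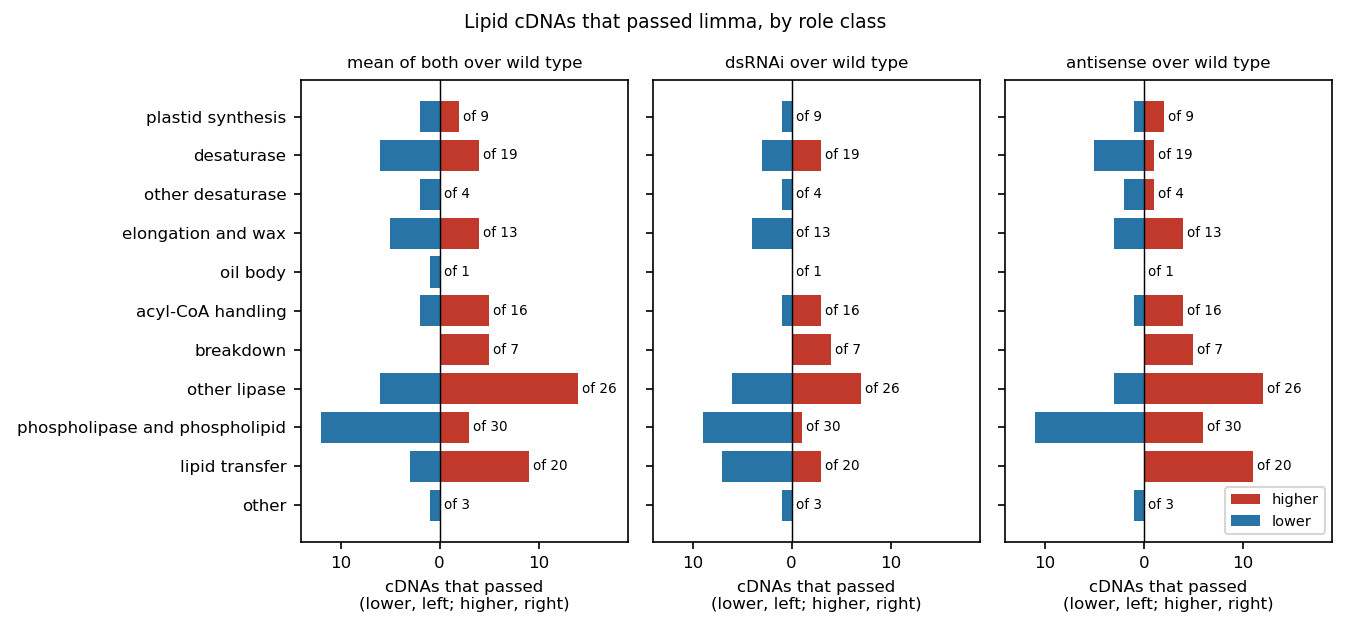
Number of cDNAs in each role class that passed limma's adjusted p of 0.05, with those lower than wild type to the left and those higher to the right, for the mean of both constructs, dsRNAi and antisense. The number tested in each class stands beside its bar. In the breakdown class 5 of 7 were higher and 0 lower in the mean, and in the lipid transfer class 3 were higher and 7 lower with dsRNAi, and 11 higher and 0 lower with antisense.

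Plastid synthesis enzymes among the members changed little. Of 9 tested, 2 rose, 2 fell and 5 did not pass, and the class lay between -0.38 and 0.41, with a median of -0.14. A FatA thioesterase (AK061352, wheat homologue), which frees fatty acids from the acyl carrier protein, stood at -0.27 and -0.48 with dsRNAi and at -0.42 and -0.35 with antisense. It was below 0 on all 4 arrays and fell by 0.38 ± 0.08 (adjusted p = 0.00731). The random block ended this call (adjusted p = 0.089) and the other 3 of the class.

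Desaturases put double bonds into fatty acids, and those of the class that fell included some of the largest falls among members. Of 19 tested, 4 rose, by 0.28 to 0.58, and 6 fell, by 0.31 to 3.08. The soluble plastid enzyme that makes oleic acid on the acyl carrier protein is represented by 6 tested cDNAs for stearoyl-ACP desaturase, of which 3 rose and 3 fell. AK101524, described as the Thunbergia alata delta-9 enzyme, stood at -3.005 and -2.91 with dsRNAi and at -3.14 and -3.27 with antisense. All 4 arrays were low and close together, and the mean was -3.08 ± 0.08, an 8.45-fold difference (adjusted p = 4.01e-07). A sunflower homologue, AK070282, ranged from -1.15 and -0.08 with dsRNAi to -1.59 and -0.91 with antisense, and its fall (-0.93 ± 0.18, adjusted p = 0.00463) ended with the random block (adjusted p = 0.112).

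FAD8, a plastid omega-3 desaturase that makes trienoic fatty acids, is represented by AK058242 (maize homologue). It stood at -1.78 and -2.45 with dsRNAi and at -2.56 and -1.85 with antisense, overlapping between constructs, and fell by 2.16 ± 0.15 (adjusted p = 1.93e-05). Over all 9 omega-3 desaturase cDNAs 3 fell and 0 rose, and the 5 described as the microsomal gene stayed between -0.35 and 0.28 without passing. Of 4 desaturases that act on other substrates, 2 fell. A sphingolipid delta 4 desaturase (AK101968, tomato homologue), which modifies the base of membrane sphingolipids, stood at -1.05 and -1.24 with dsRNAi and -0.63 and -0.81 with antisense (-0.93 ± 0.08, adjusted p = 8.18e-05, and 0.403 with median centring). A sterol-C5(6)-desaturase (AK111908, tobacco homologue), an enzyme of sterol synthesis, fell by 0.33 ± 0.08 (adjusted p = 0.0167), a call that ended with the random block (0.152) and without antisense replicate 1 (0.0591) or dsRNAi replicate 1 (0.0745). With the random block 2 of the 10 desaturase calls held.

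Elongation and wax genes moved in both directions, with the largest change of any member. Of 13 tested, 4 rose, 5 fell and 4 did not pass, with a median of -0.051. AK067907, described as the maize elongase fae2, which condenses acyl-CoA with malonyl-CoA to lengthen it, stood at -3.61 and -3.96 with dsRNAi and at -4.75 and -4.72 with antisense. The dsRNAi arrays were closer to 0 than the antisense arrays, with no overlap, and all 4 were far below wild type (-4.26 ± 0.09, 19.2-fold lower, adjusted p = 3.79e-07). Another fae2 cDNA, AK064127, stood at -1.51 and -1.63 with dsRNAi and -1.03 and -1.20 with antisense, and fell by 1.34 ± 0.08 (adjusted p = 1.04e-05, and 0.080 with median centring). An Arabidopsis elongase homologue, AK107210, stood at -1.77 and -1.71 with dsRNAi and -1.27 and -0.73 with antisense, and fell by 1.37 ± 0.10 (adjusted p = 3.34e-05, and 0.0549 with median centring).

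The 6 cDNAs described as fae2 did not move together, and 2 rose, 2 fell and 2 did not pass. The highest, AK073016, stood at 0.18 and 0.44 with dsRNAi and at 0.77 and 1.32 with antisense. Its rise (0.68 ± 0.11, adjusted p = 0.00179) passed with antisense (adjusted p = 0.00137) but not with dsRNAi (0.19), and ended with the random block (0.0994). CER1 (AK100751), a rice gene of the CER1 family, which in Arabidopsis makes the alkanes of wax, stood at 0.19 and 0.12 with dsRNAi and at 0.46 and 0.24 with antisense. Its mean of 0.25 ± 0.08 passed narrowly (adjusted p = 0.0413), and not without any one of the arrays (adjusted p between 0.0601 and 0.258), with offset 10 (0.065), with the deposited log ratio (0.0974), with an intensity trend (0.0592), with antisense arrays averaged (0.135) or with the random block (0.252). With the random block 3 of the 9 calls held.

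Fatty acyl-CoA reductases, which make primary alcohols, were named after their values were seen. The TAA1b cDNA AK071956 (wheat homologue, from anthers) stood at 0.21 and -0.14 with dsRNAi and at 1.07 and 0.90 with antisense. Its rise in the mean (0.51 ± 0.09, adjusted p = 0.00309) came with antisense alone at 0.99 (adjusted p = 0.000736), beside 0.03 with dsRNAi (0.881), and ended with the random block (0.209). The TAA1a cDNAs AK069659 and AK106807 stood at -0.08 and -0.05 and did not pass. Of the 3 untested members of the class, the TAA1a cDNA AK065894 was not well above background in any channel.

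**Figure D2:**
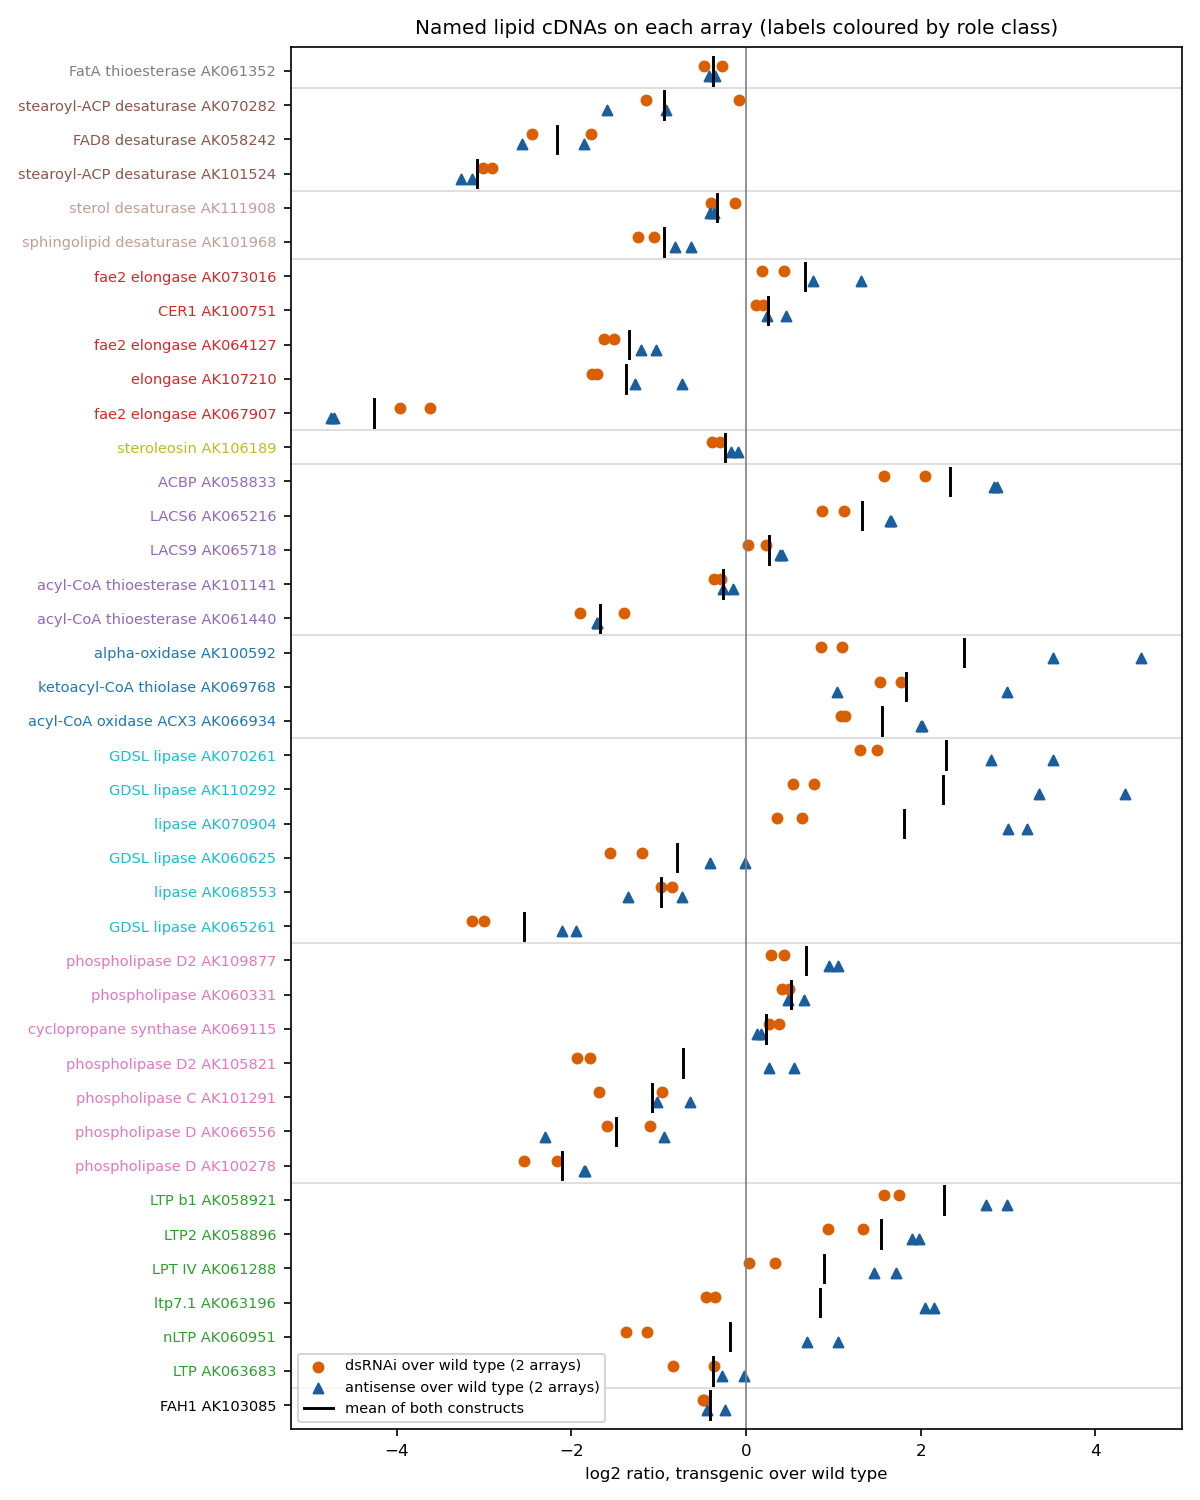
Log2(transgenic/wild type) on each array for the 40 named cDNAs, grouped by role class. Circles are the 2 dsRNAi arrays, triangles the 2 antisense arrays and bars the mean of both constructs. The elongase AK067907 lies farthest to the left on all arrays, and for AK100592, AK110292 and AK070904 the antisense arrays lie far to the right of the dsRNAi arrays.

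Breakdown genes were higher than wild type in 5 of 7 cases and lower in 0, with a median of 1.32. Alpha-oxidase (AK100592), which starts the removal of 1 carbon from a fatty acid, stood at 0.86 and 1.09 with dsRNAi and at 3.51 and 4.53 with antisense. Both antisense arrays lay above both dsRNAi arrays, and the mean was 2.50 ± 0.16 (adjusted p = 1.2e-05, with the random block 0.0503). With antisense the fitted rise was 16.2-fold (adjusted p = 8.19e-06). Wild type RNA was not well above background on the antisense arrays, so that fold rests on a dim signal.

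Enzymes of beta-oxidation rose too. The 3-ketoacyl-CoA thiolase AK069768, which cuts acetyl-CoA off the chain, stood at 1.54 and 1.77 with dsRNAi and at 1.05 and 2.98 with antisense. Its antisense arrays lay on both sides of the dsRNAi arrays, and it rose by 1.84 ± 0.26 (adjusted p = 0.001). The acyl-CoA oxidase ACX3 (AK066934, Arabidopsis homologue), which makes the first step, stood at 1.13 and 1.09 with dsRNAi and at 2.02 and 2.01 with antisense. It rose by 1.56 ± 0.08 (adjusted p = 4.1e-06), with no overlap between constructs.

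The remaining members of the class were named after their values were seen. AK099063 and AK100444 are described as the Arabidopsis multifunctional protein MFP2, which carries out the middle steps of the cycle. AK099063 stood at 1.08 and 0.68 with dsRNAi and at 1.66 and 1.87 with antisense, and rose by 1.32 ± 0.10 (adjusted p = 2.66e-05). AK100444 stood at 0.69 and -0.14 with dsRNAi and at 0.80 and 1.33 with antisense. It passed in the mean (0.67 ± 0.15, adjusted p = 0.00889) but not with dsRNAi (0.402) or with the random block (0.184). Putative acyl-CoA oxidases AK100758 and AK063051 (barley homologues) stood at -0.23 ± 0.08 (adjusted p = 0.051) and -0.11 ± 0.08 (adjusted p = 0.315). With the random block 3 of the 5 calls held, those of the thiolase, ACX3 and AK099063.

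**Figure D3:**
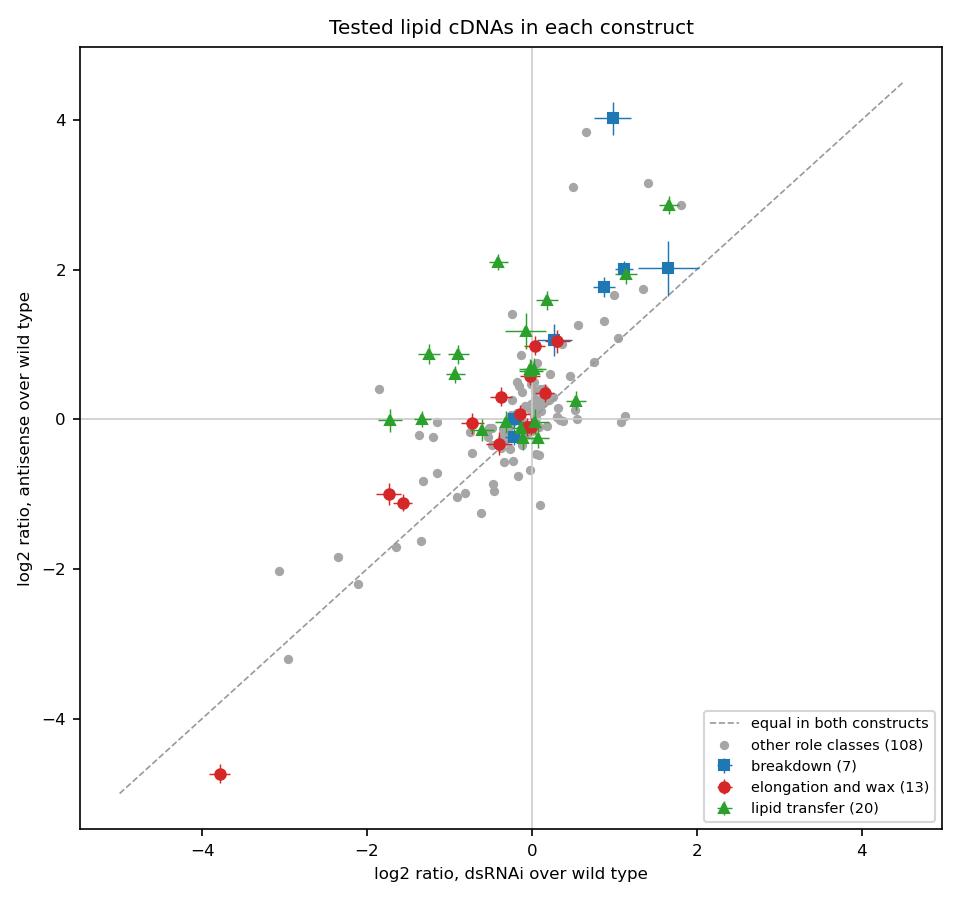
Log2 ratio with dsRNAi (horizontal) against log2 ratio with antisense (vertical) for the 148 tested members, with limma's SE as bars for the breakdown, elongation and wax, and lipid transfer classes. The dashed line marks equal values. The breakdown cDNAs that passed lie at the upper right, AK067907 at the lower left, and 16 of 20 lipid transfer cDNAs above the line.

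Acyl-CoA handling genes activate, bind or cleave acyl-CoA, and of 16 tested 5 rose, 2 fell and 9 did not pass (median 0.15). An acyl-CoA-binding protein (AK058833, ginseng homologue), which carries acyl-CoA in the cytosol, stood at 1.58 and 2.05 with dsRNAi and at 2.88 and 2.84 with antisense. It rose by 2.34 ± 0.10 (5.05-fold, adjusted p = 2.21e-06), while the cDNA of the rice acyl-CoA-binding protein, AK059406, named after its values were seen, stood at -0.36 and did not pass (adjusted p = 0.0503). The long-chain acyl-CoA synthetase LACS6, which in Arabidopsis activates fatty acids in peroxisomes, matched AK065216. This cDNA stood at 1.13 and 0.87 with dsRNAi and at 1.65 and 1.67 with antisense, and rose by 1.33 ± 0.08 (adjusted p = 1.28e-05), while a second LACS6 cDNA, AK067232, stood at 0.20 and did not pass. Of the 10 tested acyl-CoA synthetases 4 rose and 0 fell. LACS9 (AK065718), which in Arabidopsis acts at the plastid envelope, stood at 0.27 ± 0.08 (adjusted p = 0.0321), a call that ended with the random block (0.24), antisense arrays averaged (0.115), the deposited log ratio (0.0716), the series table (0.0628), and on leaving out antisense replicate 1 (0.128) or 2 (0.0982) or dsRNAi replicate 2 (0.135).

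Acyl-CoA thioesterases cleave acyl-CoA, and of 3 tested 2 fell and 1 did not pass. AK061440 (Arabidopsis homologue) stood at -1.90 and -1.39 with dsRNAi and at -1.70 and -1.70 with antisense, overlapping between constructs, and fell by 1.67 ± 0.10 (adjusted p = 1.05e-05). A homologue of a mouse mitochondrial enzyme, AK101141, stood at -0.26 ± 0.08 (adjusted p = 0.0298). Its call ended in both constructs on their own (adjusted p = 0.0726 with dsRNAi and 0.195 with antisense), without any one of the arrays (0.0579 to 0.169), and with offset 10 (0.0529), the deposited log ratio (0.074), the series table (0.0666), antisense arrays averaged (0.117) and the random block (0.197). With the random block 3 of the 7 calls in the class held. Among oil body genes, which coat stored oil, only a steroleosin (AK106189, sesame homologue) was tested. It stood at -0.24 ± 0.08 (adjusted p = 0.0422), with neither construct passing on its own (0.0565 with dsRNAi and 0.403 with antisense). It no longer passed without any one of the arrays (0.0771 to 0.191) or with offset 10 (0.0751), the deposited log ratio (0.0972), the series table (0.0889), antisense arrays averaged (0.162) or the random block (0.255). The rice oleosin ole16 (AK103379) was not well above background in any channel.

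Lipases that are not phospholipases were more often higher than lower. Of 26 tested, 14 rose, 6 fell and 6 did not pass, with a median of 0.25. The largest rise was in AK070261, a GDSL-motif lipase (a large plant family of serine esterases and lipases), which stood at 1.505 and 1.31 with dsRNAi and at 2.81 and 3.51 with antisense. Both antisense arrays were higher than both dsRNAi arrays, and the mean was 2.29 ± 0.12 (4.87-fold, adjusted p = 5.8e-06). A second, AK110292, stood at 0.54 and 0.77 with dsRNAi and at 3.36 and 4.33 with antisense. Its mean was 2.25 ± 0.15 (adjusted p = 1.77e-05, and 0.076 with the random block). It joins a fitted antisense rise of 14.4-fold (adjusted p = 8.7e-06) and a dsRNAi value of 0.66 that did not pass (0.0598). Wild type RNA was not well above background on the antisense arrays, so that fold rests on a dim signal. A putative lipase, AK070904, stood at 0.65 and 0.36 with dsRNAi and at 3.00 and 3.21 with antisense (1.80 ± 0.09, adjusted p = 4.35e-06, and 0.0725 with the random block).

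The deepest fall in the class was in a GDSL-motif lipase as well. AK065261 stood at -3.13 and -2.996 with dsRNAi and at -1.94 and -2.11 with antisense, without overlap, and fell by 2.54 ± 0.08 (adjusted p = 6.59e-07). It has the same description as AK110292, and the 4 tested cDNAs of that description spanned -2.54 to 2.25. Over all 8 tested GDSL-motif lipases 4 rose and 2 fell. The lipase AK068553 stood at -0.85 and -0.97 with dsRNAi and at -1.35 and -0.73 with antisense, and fell by 0.98 ± 0.11 (adjusted p = 0.000309, and 0.279 with median centring). AK060625, of the GDSL family, stood at -1.56 and -1.19 with dsRNAi and at -0.01 and -0.42 with antisense, so its mean of -0.79 ± 0.10 (adjusted p = 0.000623) came with dsRNAi (-1.37, adjusted p = 0.000499) and not with antisense (-0.22, 0.301), and ended with the random block (0.118).

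Triacylglycerol lipases, which release fatty acids from oil, were named after their values were seen. Of 5 tested, all wheat homologues, 4 rose and 0 fell, with a median of 1.07. AK072772 stood at 1.41 and 1.28 with dsRNAi and at 1.81 and 1.68 with antisense (1.55 ± 0.08, adjusted p = 5.23e-06). AK101890 stood at 0.82 and 0.92 with dsRNAi and at 1.37 and 1.25 with antisense (1.09 ± 0.08, adjusted p = 2.7e-05). AK099612 was nearly level across arrays, at 1.04 and 1.06 with dsRNAi and at 1.05 and 1.11 with antisense (1.07 ± 0.08, adjusted p = 2.62e-05). These 3 calls held with the random block (adjusted p = 0.00247 to 0.00711), and that of AK059731 (0.41, adjusted p = 0.00449) did not (0.107). In the lipase class as a whole 9 of 20 calls held with it.

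Phospholipases and other phospholipid genes were more often lower. Of 30 tested, 3 rose, 12 fell and 15 did not pass, with a median of -0.20. Phospholipase D cleaves the head group from membrane phospholipids and leaves phosphatidic acid, and of its 11 tested cDNAs 6 fell and 1 rose. AK100278, a rice phospholipase D, stood at -2.17 and -2.55 with dsRNAi and at -1.84 and -1.85 with antisense, and fell by 2.10 ± 0.09 (4.29-fold, adjusted p = 2.47e-06). AK066556 has the same description and stood at -1.10 and -1.59 with dsRNAi and at -2.30 and -0.94 with antisense. Its arrays overlapped between constructs, and it fell by 1.48 ± 0.20 (adjusted p = 0.000757). A phospholipase C specific for phosphatidylglycerol (AK101291, Arabidopsis homologue) stood at -1.69 and -0.96 with dsRNAi and at -1.02 and -0.64 with antisense (-1.08 ± 0.13, adjusted p = 0.000401, and 0.169 with median centring).

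The phospholipase D that rose is AK109877, a homologue of a Craterostigma plantagineum enzyme. It stood at 0.28 and 0.44 with dsRNAi and at 0.95 and 1.06 with antisense. The mean was a fitted 1.60-fold rise (adjusted p = 0.000348), a call that ended with median centring (0.604). It passed with antisense (adjusted p = 0.000343) and not with dsRNAi (0.0537). Wild type RNA was not well above background on any array, so these values rest on a dim signal. AK105821 has the same description and went the other way with dsRNAi. It stood at -1.93 and -1.79 with dsRNAi and at 0.26 and 0.56 with antisense, and passed in opposite directions (adjusted p = 6.03e-05 with dsRNAi and 0.0347 with antisense). Its mean of -0.73 ± 0.09 (adjusted p = 0.000392, and 0.368 with the random block) thus averages values of opposite sign. A putative phospholipase, AK060331 (Arabidopsis homologue), rose by 0.51 ± 0.08 (adjusted p = 0.00154, and 0.672 with median centring), with 0.50 and 0.42 in dsRNAi and 0.66 and 0.48 in antisense.

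Among named phospholipid cDNAs that passed in the mean, the smallest change was in a cyclopropane-fatty-acyl-phospholipid synthase (AK069115, Arabidopsis homologue), at 0.23 ± 0.08 (adjusted p = 0.0452). It passed in neither construct on its own (0.073 with dsRNAi and 0.339 with antisense), nor without any one of the arrays (0.0697 to 0.189), nor with the deposited log ratio (0.0674), the series table (0.0845), antisense arrays averaged (0.17) or the random block (0.254). In the class 7 of 15 calls held with the random block. A fatty acid hydroxylase outside these classes, FAH1 (AK103085, Arabidopsis homologue), which hydroxylates sphingolipid fatty acids, stood at -0.48 and -0.49 with dsRNAi and at -0.45 and -0.24 with antisense (-0.41 ± 0.08, adjusted p = 0.00469, and 0.0736 with the random block).

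Lipid transfer genes were higher than wild type with antisense for 11 of 20 cDNAs and mixed with dsRNAi. In the mean 9 of 20 tested rose and 3 fell, with a median of -0.0055. With dsRNAi 3 rose and 7 fell, while with antisense 11 rose and 0 fell. Over all probes tested 11.2% were higher and 14.6% lower with dsRNAi, and 18.9% higher and 18.3% lower with antisense. The class had medians of -0.092 with dsRNAi and 0.62 with antisense. With median centring 2 passed in the mean, 0 with dsRNAi and 3 with antisense. Members higher in both constructs on their own were led by AK058921, rice lipid transfer protein b1, which stood at 1.75 and 1.58 with dsRNAi and at 2.99 and 2.74 with antisense (2.27 ± 0.09, adjusted p = 1.41e-06). AK058896, the rice LTP2 precursor, stood at 0.94 and 1.34 with dsRNAi and at 1.98 and 1.91 with antisense (1.54 ± 0.09, adjusted p = 1.04e-05). For both, every array was above wild type and the antisense arrays were the higher. These 2 calls held with the random block, and the other 10 of the class did not.

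Other lipid transfer cDNAs were near or below wild type with dsRNAi and above it with antisense. AK061288, rice LPT IV, stood at 0.04 and 0.33 with dsRNAi and at 1.72 and 1.47 with antisense. It rose with antisense (adjusted p = 5.79e-05) and not with dsRNAi (0.35), and its mean of 0.89 ± 0.09 (adjusted p = 0.000171) ended with the random block (0.115). AK063196, a homologue of the durum wheat ltp7.1, stood at -0.46 and -0.36 with dsRNAi and at 2.05 and 2.15 with antisense. It fell with dsRNAi (adjusted p = 0.0328) and rose with antisense (adjusted p = 7.18e-06), and its mean of 0.85 ± 0.08 (adjusted p = 9.92e-05) ended with the random block (0.332). AK060951, a homologue of an Arabidopsis non-specific lipid transfer protein, stood at -1.37 and -1.13 with dsRNAi and at 1.05 and 0.70 with antisense. Opposite signs left its mean at -0.19 ± 0.09, which did not pass (adjusted p = 0.153).

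Of the 5 members that passed in opposite directions in the constructs (3.38%, against 1.39% of all probes), 4 were lipid transfer cDNAs. Besides AK063196 and AK060951 they were AK062529 and AK062463 (barley homologues), named after their values were seen, at -0.89 and -0.93 with dsRNAi and at 0.87 and 0.60 with antisense. The largest mean fall of the class, also named afterwards, was in AK060340, rice lipid transfer protein b21, which stood at -1.66 and -1.78 with dsRNAi and at 0.25 and -0.28 with antisense (-0.87 ± 0.10, adjusted p = 0.00039). It fell with dsRNAi (adjusted p = 0.000179) and not with antisense (0.949), and its mean no longer passed with median centring (0.424). A rice lipid transfer protein, AK063683, stood at -0.83 and -0.37 with dsRNAi and at -0.02 and -0.27 with antisense (-0.37 ± 0.10, adjusted p = 0.022). That call ended with the deposited log ratio (0.0843), the series table (0.184), the random block (0.24), and without antisense replicate 2 (0.0698) or dsRNAi replicate 1 (0.0921).

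The difference between constructs was then tested itself. By dsRNAi minus antisense 36 of 148 members passed (24.3%, against 16.5% of all probes), of which 4 were higher and 32 lower with dsRNAi (2.70% and 21.6%, against 6.33% and 10.1%). Among lipid transfer cDNAs 10 of 20 passed and all 10 were lower, with a median difference of -0.74 over the 20. In the breakdown class 3 of 7 were lower and 0 higher, among other lipases 8 of 26 and 0, and in the elongation and wax class 3 of 13 were lower and 1 higher. The largest differences were in AK110292 (-3.19 ± 0.30, adjusted p = 0.000607), AK100592 (-3.04 ± 0.31, adjusted p = 0.000805), AK070904 (-2.61 ± 0.18, adjusted p = 0.000194), AK063196 (-2.51 ± 0.16, adjusted p = 0.000155), AK105821 (-2.27 ± 0.17, adjusted p = 0.000305) and AK060951 (-2.13 ± 0.19, adjusted p = 0.000479). With median centring in place of loess none of these 6 passed (adjusted p = 0.11 to 0.892), though each kept its sign, and over all members 0 passed (9 at an unadjusted p under 0.05). Among the 4 in the other direction was the elongase AK067907, which was closer to wild type with dsRNAi by 0.95 ± 0.18 (adjusted p = 0.0106).

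A ratio can differ between constructs through either channel, so the 2 channels were fitted apart in limma's separate channel model. In the transgenic channels, dsRNAi minus antisense passed for 0 of 148 members (0.122% of all probes, with 18 members at an unadjusted p under 0.05), and in the wild type channels for 26 (17.6%, against 14.8% of all probes), of which 22 were higher and 4 lower on the dsRNAi arrays (14.9% and 2.70%, against 8.40% and 6.44%). Of the 20 lipid transfer cDNAs 8 passed in the wild type channels, all higher on the dsRNAi arrays. For AK063196 the transgenic signal was 8.23 and 8.33 on the dsRNAi arrays and 8.996 and 8.74 on the antisense arrays (log2 intensity, difference -0.59, adjusted p = 0.359), while its wild type signal was 8.68 and 8.69 on the dsRNAi arrays and 6.94 and 6.59 on the antisense arrays (difference 1.92, adjusted p = 0.00225). For AK060951 transgenic signal differed by 0.57 (adjusted p = 0.68) and wild type signal by 2.69 (adjusted p = 0.00555). Outside the class, alpha-oxidase AK100592 differed by 0.13 in transgenic signal (adjusted p = 0.963) and by 3.18 in wild type signal (adjusted p = 0.00661). The lipase AK110292 differed by -0.21 in transgenic signal (adjusted p = 0.938) and by 2.97 in wild type signal (adjusted p = 0.00783). For the lipase AK070904 these were -0.32 in transgenic (adjusted p = 0.801) and 2.28 in wild type signal (adjusted p = 0.00502).

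**Figure D4:**
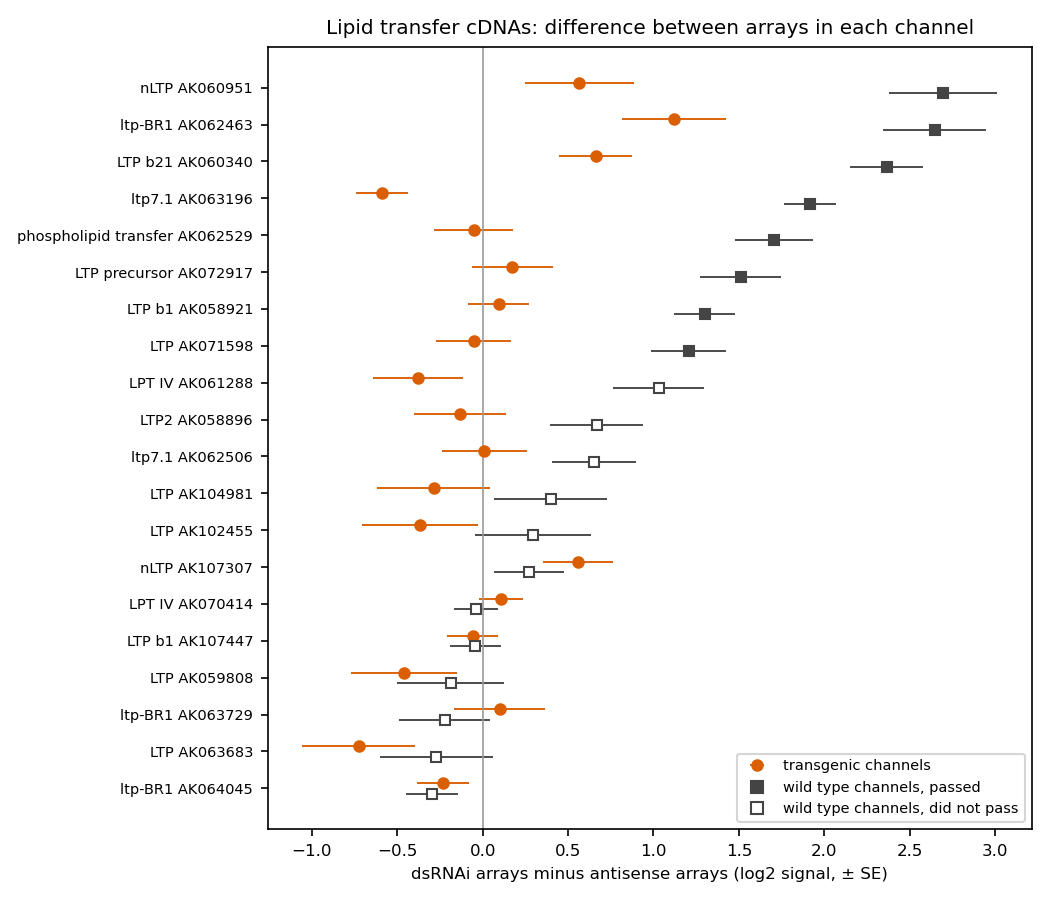
Difference in log2 signal between dsRNAi and antisense arrays for the 20 tested lipid transfer cDNAs, fitted apart in the transgenic channels (circles) and the wild type channels (squares), with SE as bars. Of the circles 0 of 20 passed an adjusted p of 0.05, and of the squares 8 of 20 did (filled), all to the right of 0.

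The dsRNAi and antisense arrays were read with different versions of the extraction software and differ in slide and scan, so these cannot be told apart from the construct or from the wild type RNA used. The counts in the channels also moved with single arrays. Counts over all probes were not taken for these fits, so the moves cannot be called particular to the members. In the transgenic channels 20 and 17 members passed without antisense replicate 1 and antisense replicate 2, and 0 without either dsRNAi array (45 and 39 at an unadjusted p under 0.05 in limma). In the wild type channels 67, 60, 55 and 57 members passed without antisense replicate 1, antisense replicate 2, dsRNAi replicate 1 and dsRNAi replicate 2, and of the lipid transfer cDNAs 14, 13, 10 and 13. Photosynthesis genes, used as a marker of green tissue, were mostly higher on the dsRNAi arrays in both channels. Values were above 0 for 28 of 34 in transgenic channels (median 0.85) and 27 in wild type channels (median 1.00). The lipid transfer cDNAs had medians of -0.052 in transgenic and 0.66 in wild type channels. Of 34 tested, 3 were higher and 0 lower on the dsRNAi arrays in the transgenic channels, and 18 higher and 0 lower in the wild type channels. The log2 of the summed signal of the 41 genes on the list was taken in each channel. In transgenic channels it was 16.0 to 16.1 on the dsRNAi arrays and 15.4 on the antisense arrays. In wild type channels it was 16.1 to 16.3 on the dsRNAi arrays and 15.2 on the antisense arrays. Of these 41, 27 were well above background in every channel. Their part in the lipid transfer values was not tested.

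Other genes of the same pathways that the descriptions above do not cover were taken from a list by description. Without 3 cDNAs that only a spelling brought in (Waxy starch synthase AK070431 and AK109227 and isopropylmalate synthase AK066890), 58 were tested, of which 17 rose and 15 fell in the mean of both constructs, with a median of -0.044. Around beta-oxidation, a peroxisomal ascorbate peroxidase (AK108458, barley homologue), which removes hydrogen peroxide made by acyl-CoA oxidases, rose by 1.24 ± 0.09 (adjusted p = 3.04e-05). Another cDNA of that description, AK070842, stood at -0.07 and did not pass (0.543). Peroxisomal ABC transporter cDNAs AK110805, AK064992 and AK099809 stood at 0.20, -0.19 and 0.061 and did not pass in the mean. The largest change of the list was in the rice isocitrate lyase AK063353, at 5.24 ± 0.16 (adjusted p = 5.57e-07, and 0.0108 with the random block). It stood at 3.37 and 3.18 with dsRNAi and at 6.68 and 7.73 with antisense. By dsRNAi minus antisense it differed by -3.93 (adjusted p = 0.000346). Its transgenic signal differed by -0.25 (adjusted p = 0.949) and its wild type signal by 3.68 (adjusted p = 0.0108). Only 3 arrays flagged its wild type spot as well above background, so its ratio rests in part on a dim signal. A further isocitrate lyase cDNA, AK107356, stood at -0.13 and did not pass (0.381). Of 6 tested enoyl-CoA hydratase cDNAs 2 rose, 1 fell and 3 did not pass, and with the random block 0 passed. The largest rise was in AK109471 (Arabidopsis homologue) at 0.75 ± 0.09 (adjusted p = 0.000415, and 0.0508 with the random block), and AK068152 stood at -0.59 (adjusted p = 0.000849, and 0.116 with the random block). The rice peroxisomal multifunctional protein cDNAs AK103620 and AK073294 stood at 0.0032 and 0.11 and did not pass. Of 5 tested cDNAs for glossy8, a ketoacyl reductase of wax synthesis, 2 rose, 2 fell and 1 did not pass, and with the random block 0 passed (adjusted p of the 4 calls 0.13 to 0.238). The lowest, AK109790, stood at -0.24 and -1.28 with dsRNAi and at -0.80 and -0.11 with antisense (-0.61 ± 0.18, adjusted p = 0.0282), and the highest, AK059916, at 0.50 in the mean (adjusted p = 0.00774). A WAX2 cuticle protein homologue (AK060786) stood at -0.089 (adjusted p = 0.394). Rice enoyl-ACP reductase cDNAs, of fatty acid synthesis in plastids, were both lower in the mean. AK070992 stood at -0.57 (adjusted p = 0.00152, and 0.112 with the random block) and AK103141 at -0.34 (adjusted p = 0.00932, and 0.0998 with the random block). All cDNAs of these pathways given here were named after their values were seen.

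Markers of other tissues were measured beside these classes. Of 7 tested anther and pollen genes 3 rose and 0 fell (20.5% and 21.3% of all probes). The rises were in AK067214 and AK070662, described as a juniper pollen allergen, and AK064717, described as a maize anther protein. That of AK067214 ended with the random block (adjusted p = 0.222). Of the list's 13, 6 were not well above background in any channel, among them the tapetum cDNA AK070631 and the anther cDNA AK109857. The log2 of the summed signal of the 13 was between 13.5 and 13.9 in transgenic and between 12.8 and 13.5 in wild type channels. Of 7 tested homeobox cDNAs of the epidermis (Roc1, OCL3 and OCL4 descriptions) 1 rose and 2 fell, and 0 passed with the random block. The log2 of their summed signal was between 13.1 and 13.6 in transgenic and between 13.2 and 13.3 in wild type channels. Of 7 tested seed storage genes 0 rose and 1 fell, and 4 of that list's 11 were not well above background in any channel. The panicle genes OsMADS5, OsMADS6 and OsMADS8 were well above background in every channel, and all 3 rose in the mean, by 1.36, 0.75 and 0.77 (random block adjusted p = 0.00572, 0.134 and 0.0396). OsMADS6 (AK069103) rose with dsRNAi (1.39, adjusted p = 0.000141) and not with antisense (0.11, 0.503), and with median centring neither it nor OsMADS8 (AK072867) passed (0.273 and 0.186). Whether cell makeup contributed to the lipid values was not tested.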

How the data were processed

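Per the file headers, the authors' Agilent Feature Extraction (9.1.3.1 for dsRNAi, 8.1.1.1 for antisense) measured spot intensity in both channels, and the deposited files also hold its log10 ratio and flags for outlier, saturated and well-above-background spots. The deposited series table of log2 ratios states no processing. Matched to sorted probe names, its columns correlated with the scanner ratio at 0.839 and 0.852 (dsRNAi) and 0.959 and 0.975 (antisense), which gave its scale and direction (Cy5 over Cy3). Its centring is unknown (medians, turned to transgenic over wild type, of 0.0842 and 0.0521 for dsRNAi and -0.0046 and -0.0366 for antisense). For dyes, label fields were followed where the labelling text of swapped arrays contradicts them, and arrays then correlated at 0.816 within dsRNAi, 0.926 within antisense and 0.586 to 0.637 between constructs.

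Mean foreground and median background went through normexp (offset 50) and loess within arrays in limma 3.58.1 (R 4.3.3), with control spots at weight 0 and outlier spots dropped. A probe was tested if either channel exceeded background well on 2 or more arrays and it had 4 values. One coefficient per construct was fitted, with eBayes and Benjamini-Hochberg adjustment at 0.05. Channels were fitted apart after Aquantile (intraspot correlation 0.884). Folds given where wild type RNA was not well above background are fitted values. The wild type signals already lay at or above the lowest probe well above background on their arrays. Raising them to that level therefore could not change the folds and did not test the dim signal. On simulated data the fit of the mean of both constructs was tested with equal changes in both, and the separate channel fit with changes in the wild type channels. The other comparisons and alternatives were not tested in this way. Tables and figures used pandas 2.3.3, numpy 2.4.6 and matplotlib 3.10.9 in Python 3.11.15, and limma used statmod 1.5.0.

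Members, role classes and lists were chosen with earlier results of these data known. Role classes follow descriptions, and 15 members were moved for spelling or function (such as "longase" and acyl-CoA reductases). Named are up to 3 rises and 3 falls per class that passed in the mean with 1 sign on all arrays, and the 6 largest differences between constructs that passed. Of member accessions 0 were in the RefSeq rice table (39387 genes), so names are those of the files. No sequence of a member was among the sources used here. Alternatives are given in the closing section.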

Additional observations from a re-analysis of the deposited data

Results flagged for a closer look

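Among named members, 17 differed between constructs by limma's test of dsRNAi minus antisense itself (adjusted p under 0.05), and they are given here as log2 differences. The lipases AK110292, AK070904 and AK070261 differed by -3.19, -2.61 and -1.75, and AK060625 and AK065261 by -1.16 and -1.04. In the breakdown class alpha-oxidase AK100592 differed by -3.04 and ACX3 (AK066934) by -0.90. The lipid transfer cDNAs AK063196, AK060951, AK061288, AK058921 and AK058896 differed by -2.51, -2.13, -1.41, -1.20 and -0.80. The phospholipases D AK105821 and AK109877 differed by -2.27 and -0.64, the acyl-CoA-binding protein AK058833 by -1.05 and LACS6 (AK065216) by -0.66. The elongase AK067907 was the one higher with dsRNAi, by 0.95. As each construct has 2 arrays, no array could be checked as an outlier within its construct.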

How the results depend on the processing

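The number of members that passed was compared under each alternative. In the mean of both constructs (86) it was 21 with median centring and 30 with construct as a random block. It was 0 with both pairs averaged (34 at an unadjusted p under 0.05 in limma), and 67 to 76 without single arrays. Over all 17997 probes tested the count of 7508 was 1096 with median centring, 2594 with the random block and 0 with both pairs averaged. With median centring the number of members was 4 for dsRNAi (54), 15 for antisense (73) and 0 for dsRNAi minus antisense (36, with 9 at an unadjusted p under 0.05). For that difference it was 23 with the series table. Without single arrays these counts were 41 to 57, 50 to 74 and 33 to 37. In the separate channel fit they were 0 to 20 in the transgenic and 55 to 67 in the wild type channels (0 and 26 with all arrays), where fits without an array used the intraspot correlation of all 4. The cause of these moves was not tested, and counts over all probes under the alternatives were taken for the mean only. The share of higher calls among members was 53.5% in the mean (46 of 86), and 66.7% with median centring (14 of 21). Over all probes 3682 of 7508 calls were higher in the mean, and 563 of 1096 with median centring. With median centring members had 25.0% higher for dsRNAi (1 of 4 calls, 38.9% with loess). For antisense they had 73.3% higher (11 of 15 calls, 63.0% with loess). For dsRNAi minus antisense the share was 11.1%, 21.4% with the deposited log ratio and 21.6% without antisense replicate 2. Over named members in the mean, 512 values kept direction and side of the threshold, 123 kept direction but no longer passed and 1 changed sign, AK060951, at 0.041 with median centring (adjusted p = 0.98). For the 6 named differences 76 kept both and 6 no longer passed, all with median centring. No paired analysis was possible because replicate numbers were given in deposit order and pair no arrays, and each array already holds transgenic and wild type RNA. Depth is not known for arrays, and 2 arrays per construct and background limit the precision: 27 members were not well above background in any channel.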
